A study of Mus musculus with 4 samples.

Results

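The genes described here are 39 genes of central carbon metabolism in reconstituted ovaries (rOvaries), taken by name from the deposited table: the transporters and enzymes that bring glucose into the cell and break it down to pyruvate (glycolysis), those that make and export lactate, the pyruvate dehydrogenase complex with its kinases, and enzymes of the tricarboxylic acid (TCA) cycle. All 39 were found among the 54021 gene symbols of the table. The members were taken by name and not by a threshold on measured values, although earlier results of these data were known when the list was made. The rOvaries formed from aggregates of primordial germ cells and gonadal somatic cells of C57BL/6 fetuses, some carrying an actin-GFP transgene, that were placed under the kidney capsule of bilaterally ovariectomized young adult females. The recipients of both groups were second-generation telomerase-deficient mice (G2 Terc-/-) on a C57BL/6 background, whereas the donor cells were not described as Terc-deficient. In the first group the recipients drank water with INK128, an inhibitor of the kinase mTOR in both of its complexes, and in the control group they received none. The labels give the dose by body weight (0.75 uM per g), whereas the study's methods give a concentration in the water with an approximate daily mass by body weight, and the statements were not reconciled here. The grafts were collected 1 month after transplantation, and poly(A) RNA of 2 INK128-treated rOvaries (replicates 1 and 2) and 2 control rOvaries (replicates 1 and 3) was sequenced. The host's kidney lies against the graft, and the labels do not say whether replicates came from separate recipients, so the p-values below measure the spread between these 4 libraries only.

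Glycolysis turns glucose into pyruvate in the cytosol and yields a little ATP. Pyruvate is then either reduced to lactate by lactate dehydrogenase or enters mitochondria, where pyruvate dehydrogenase makes acetyl-CoA and the TCA cycle oxidizes it. In the ovary these steps are divided between cells: granulosa cells are strongly glycolytic and hand pyruvate and lactate to the oocyte, which uses glucose poorly itself. mTOR complex 1 is known to raise transcription of glucose transporter and glycolysis genes through the hypoxia-inducible factor HIF1α and Myc, which makes these genes usual readouts of mTOR inhibition.

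Library totals were 19130209 and 23029089 counts for INK128 and 21585292 and 22812603 counts for control. Levels are given as CPM, read counts scaled to library size with trimmed mean of M-values (TMM) factors, at which 3 counts, taken as a floor for counting error only, equal between 0.127 and 0.161 CPM. The 2 INK128-treated libraries resembled each other (Pearson r = 0.98 of log2 CPM across the 11758 tested genes), and the 2 controls less so (r = 0.806), genes not being independent replicates. The treated libraries did differ in the sum of 13 protein-coding genes of the mitochondrial genome, which was 15151 and 34521 CPM in the treated grafts against 37823 and 21377 CPM in the control grafts. Ovarian identity was checked by markers. All 9 granulosa cell markers were detected in every library, and their summed level was 6045 and 7859 CPM in the treated grafts against 3233 and 6334 CPM in the control grafts. Among them Amh was at 131 and 80.1 CPM with INK128 and at 435 and 5.1 CPM without, so the sum hides a wide gap between the controls. The sum of 12 oocyte markers was 1199 and 881 CPM in the treated grafts against 874 and 63.9 CPM in the control grafts. So control replicate 3 had little oocyte RNA although none of the 12 was at 0. Kit alone gave 35.8 of these 63.9 CPM, its highest value in any library, whereas every other marker of the list was lowest there. The sum of 25 kidney markers was 126 and 244 CPM in the treated grafts against 958 and 2260 CPM in the control grafts. Of the 25, 22 were lower in both treated grafts than in either control. Of the 19 that were tested, most of them with a treated mean under 10 CPM, 19 were lower, against 34% of all tested genes. 1 of the 25 was at 0 in each treated graft and none in the controls. Of 17 immune cell markers, 10 were lower in both INK128-treated rOvaries. Of the 8 that were tested, some of them with a treated mean under 10 CPM, 6 were lower, against the same 34%. The sum of the 17 was 355 and 339 CPM in the treated grafts against 522 and 735 CPM in the control grafts. The sum of 6 steroidogenic cell markers also differed widely between the controls, at 3780 and 4989 CPM with INK128 and 774 and 10595 CPM without. The sums of 6 adipocyte markers (55.8 and 89.3 against 8.5 and 25.8 CPM) and of 5 erythroid markers (97.4 and 91.4 against 22.3 and 56.7 CPM) were higher in both treated rOvaries. The adipocyte sum was carried by Plin1 and Fabp4, the other 4 markers being at 0 to 6 counts in every library. The erythroid sum was carried by globins, whereas Alas2 was lower in both treated rOvaries. In bulk tissue fewer cells of a type and less RNA per cell cannot be told apart. The part of these differences in the results below was not tested, and values without each library are given beside the counts.

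Of the 39 genes, 37 had a mean CPM above 10 over the 4 libraries and were tested among 11758 genes with edgeR's quasi-likelihood test, while Aldoc and Eno2 were below this level. Slc2a3 passed it through the control level, both INK128 values being under 10 CPM. A gene was called when its fold change exceeded 1.5 and its edgeR adjusted p was below 0.05. With INK128 none of the 37 was called, against 6.37% of all tested genes (3.18% higher and 3.19% lower). By the unadjusted p alone (below 0.05), 7 of the 37 passed, against 36.4% of all tested genes. The log2 fold changes (INK128 over control) ran from −1.61 for Hk2 to 0.76 for Idh2, 19 above and 18 below 0, with a median of 0.00 against −0.03 over all tested genes. The adjusted p-values of edgeR were 0.0543 or higher. For 19 of the 37 the 95% interval of the difference lay within 2-fold in either direction.

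With DESeq2 on the same genes, 6 members were called, against 28.6% of all tested genes (13.6% higher and 15.1% lower). Idh2 was higher, and Slc2a1, Hk2, Pgam1, Pdk1 and Ogdh were lower in the INK128-treated rOvaries. These 6 encode a mitochondrial isocitrate dehydrogenase, a glucose transporter, a hexokinase, a phosphoglycerate mutase, a pyruvate dehydrogenase kinase and the oxoglutarate dehydrogenase of the TCA cycle. At a looser adjusted p below 0.1 in edgeR, a setting chosen after the data were seen, Idh2 was called higher and Slc2a1, Pgam1 and Pdk1 lower, against 26.6% of all tested genes.

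The number of calls depended on which libraries were kept. Without control replicate 1, 2 members were called higher and 8 lower by edgeR, against 45.7% of all tested genes, and without control replicate 3, 6 of 36 were called higher and 8 lower, against 42.7%. Without either INK128 replicate 1 or INK128 replicate 2, no gene of the table was called (0% of 11849 and of 11842 genes). Fits with 1 library in a group assume that it varies as the libraries of the other group do. Idh2 (higher) and Slc2a1, Pgam1, Pdk1 and Ogdh (lower) were called in both of these fits with 1 control. Ldhb was called higher without control replicate 1 and lower without control replicate 3.

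Counting groups that did not overlap, 10 of the 37 tested members were higher in both treated grafts than in either control and 10 were lower, against 34.5% and 34% of all tested genes (68.5% in either direction), so these counts were below the background in both directions. The higher ones were Pfkm, Aldoa, Pkm, Ldha, Pdhb, Idh2, Idh3g, Suclg1, Fh1 and Mdh2. The lower ones were Slc2a1, Slc2a3, Hk1, Hk2, Pgam1, Eno1, Pdk1, Pdk3, Ogdh and Mdh1. In the other 17 the groups overlapped. The controls differed from each other by more than 1.5-fold in 15 of the 39 members, and the INK128-treated rOvaries in 1, Hk2.

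**Figure D1:**
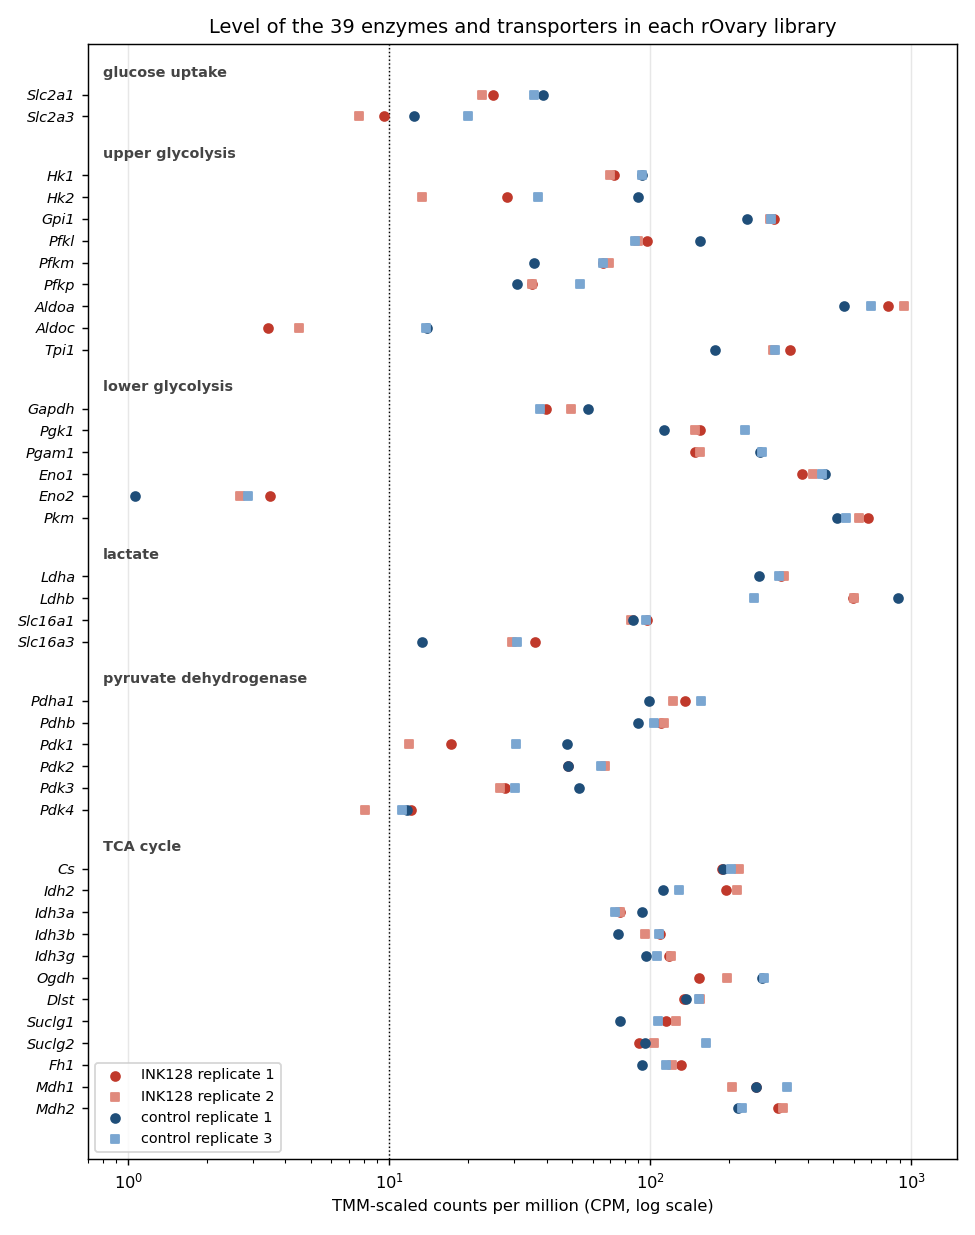
Level of each of the 39 genes in each library, as TMM-scaled CPM on a log axis, ordered by role. Circles and squares are single libraries (red, INK128-treated; blue, control), and the dotted line marks 10 CPM. The red symbols of a gene mostly lie together, while the blue ones are far apart for Ldhb, Pgk1, Tpi1, Pfkl and others, and both red symbols lie left of both blue ones for Slc2a1, Hk2, Aldoc, Pgam1 and Pdk1.

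Glucose enters through facilitative transporters. Slc2a1 (chr4:119108711-119137983, plus strand, GENCODE M21 on mm10) encodes GLUT1, the widely expressed basal transporter, and measured 24.9 and 22.7 CPM in the treated grafts against 38.8 and 35.8 CPM in the control grafts. Both treated rOvaries lay below both controls, with little spread within either group (23.8 ± 1.58 CPM treated against 37.3 ± 2.08 CPM control, each mean ± SD of n = 2). The difference was 1.57-fold between the means, with a log2 fold change of −0.65 (SE 0.20, edgeR adjusted p = 0.0942), and DESeq2 gave an adjusted p of 0.0456. Slc2a3 encodes GLUT3, a high-affinity transporter, and was the second lowest member per length in mean over the libraries. It measured 9.55 and 7.68 CPM with INK128 and 12.4 and 19.9 CPM without. The groups did not overlap, but the controls differed from each other by 1.6-fold, and the log2 fold change was −0.91 (SE 0.36, edgeR adjusted p = 0.149). Both uptake genes were therefore lower in the treated rOvaries without passing the edgeR test.

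The upper steps of glycolysis phosphorylate glucose and split it into triose phosphates. Hexokinase traps glucose in the cell. Hk2, the inducible hexokinase (chr6:82725025-82774454, minus strand), measured 28.2 and 13.3 CPM in treated and 89.6 and 37.1 CPM in control rOvaries. It was the member with the largest negative log2 fold change of the 37, −1.61 (SE 0.58, edgeR adjusted p = 0.126), and its means differed by 3.05-fold (20.8 ± 10.6 CPM treated against 63.4 ± 37.2 CPM control, each mean ± SD of n = 2). Replicates of both groups were apart by more than 2-fold, a wider gap than that between the lower control and the higher treated rOvary. DESeq2 gave an adjusted p of 0.0278, and the edgeR log2 fold change ran from −2.25 to −0.85 when single libraries were left out. Hk1, the housekeeping hexokinase, measured 72.5 and 70.3 CPM in the treated grafts against 93.1 and 92.6 CPM in the control grafts. Its groups did not overlap and were tight, with a log2 fold change of −0.38 (SE 0.16, edgeR adjusted p = 0.156), which became −0.01 (adjusted p = 0.978, edgeR) when exon length was entered as an offset in each library.

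Phosphofructokinase commits the sugar to glycolysis and has liver (Pfkl), muscle (Pfkm) and platelet (Pfkp) forms. Pfkl measured 97.2 and 89.6 CPM with INK128 and 154 and 87 CPM without. Pfkm measured 66 and 69.3 CPM in treated and 35.8 and 65.5 CPM in control rOvaries, and Pfkp 35.2 and 35.2 CPM in the treated grafts against 30.9 and 53.8 CPM in the control grafts. Control replicate 1 was the highest library for Pfkl and the lowest for Pfkm and Pfkp. None of the 3 passed the test, with adjusted p-values of 0.428, 0.395 and 0.563 (edgeR). Part of the exons of Pfkm (10.2%) and Pfkp (5.58%) overlap another annotated gene (Gm26513 and Pitrm1), and reads there could belong to either gene, also for Pitrm1 on the opposite strand, as the library kit does not mark strand.

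Aldolase splits fructose bisphosphate. Aldoa, the main form in most tissues, measured 813 and 934 CPM with INK128 and 554 and 702 CPM without. The treated rOvaries were higher than both controls, with a log2 fold change of 0.48 (SE 0.21, edgeR adjusted p = 0.183), or 0.18 (adjusted p = 0.628, edgeR) with the exon length offset. Aldoc, the form best known from brain (chr11:78322968-78327781, plus strand), was low throughout at 3.44 and 4.51 CPM in treated and 13.9 and 13.9 CPM in control rOvaries. The controls were almost equal and 3.5-fold above the treated rOvaries in mean. In the fit of 17631 genes with a mean CPM above 1, in which no gene was called, its log2 fold change was −1.75 (SE 0.33, edgeR adjusted p = 0.0595). Tpi1, which interconverts the triose phosphates, measured 343 and 294 CPM in the treated grafts against 176 and 300 CPM in the control grafts. Control replicate 1 was low and control replicate 3 lay within the treated range, with a log2 fold change of 0.42 (SE 0.31, edgeR adjusted p = 0.366), or 0.09 with the offset. Gpi1, the isomerase before phosphofructokinase, measured between 235 and 297 CPM, with overlapping groups and a log2 fold change of 0.16.

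The lower steps make ATP and pyruvate. Pgam1, the broadly expressed phosphoglycerate mutase (chr19:41911923-41918660, plus strand), had the smallest adjusted p of the 37 members. It measured 148 and 155 CPM with INK128 and 263 and 267 CPM without. Replicates differed by 1.05-fold and 1.02-fold within the groups (151 ± 4.73 CPM treated against 265 ± 3.19 CPM control, each mean ± SD of n = 2), and the controls were 1.75-fold higher. The log2 fold change was −0.81 (SE 0.17, edgeR adjusted p = 0.0543) with a 95% interval of −1.24 to −0.37, DESeq2 gave an adjusted p of 9.41e-05, and with the length offset the log2 fold change was −1.32 (adjusted p = 0.075, edgeR). Eno1, the enolase of most tissues, measured 382 and 419 CPM in treated and 466 and 455 CPM in control rOvaries, and Pkm, the pyruvate kinase that closes glycolysis, 682 and 629 CPM in the treated grafts against 518 and 562 CPM in the control grafts. Enolase 1 was lower and pyruvate kinase higher in both treated rOvaries, but by less than 1.5-fold, with log2 fold changes of −0.20 (SE 0.17, edgeR adjusted p = 0.435) and 0.28 (SE 0.18, edgeR adjusted p = 0.307). Eno2, the neuronal enolase, was at 3.49 and 2.67 CPM with INK128 and 1.06 and 2.87 CPM without, the lowest member per length, and its groups overlapped. Pgk1, the phosphoglycerate kinase, spanned its whole range within the controls, from 113 to 229 CPM, with the treated rOvaries between them.

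Gapdh, used in many assays as a reference transcript, was chosen for description after its values were seen, because other symbols with nearly its sequence held more counts than Gapdh itself. It measured only 39.8 and 49.6 CPM in treated and 57.6 and 37.7 CPM in control rOvaries, with a log2 fold change of −0.09 (SE 0.28, edgeR adjusted p = 0.827). Another 90 symbols share stretches of at least 200 bases at 95% identity or more with its transcripts, and they held 18616 counts against 4015 for Gapdh itself. Summed with these copies the level was 279 and 273 CPM in the treated grafts against 240 and 257 CPM in the control grafts. The sum was slightly higher in both treated rOvaries, at a log2 fold change of 0.15 (edgeR adjusted p = 0.536), so both the level and the direction of Gapdh are uncertain. For the other members with such copies, the copies held under 5% of the gene's own counts.

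**Figure D2:**
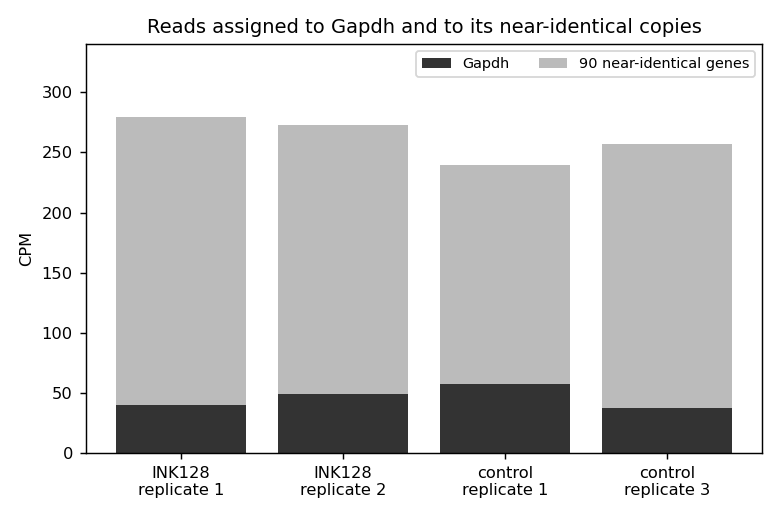
CPM assigned to Gapdh (black) and, stacked on it, to 90 symbols with near-identical sequence (grey), in each of the 4 libraries. Gapdh alone varied from 37.7 to 57.6 CPM and was highest in control replicate 1, whereas the whole bars ran from 240 to 279 CPM with both treated rOvaries above both controls.

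Lactate dehydrogenase is a tetramer of Ldha and Ldhb subunits, the latter typical of oxidative cells. Ldhb (chr6:142490249-142507957, minus strand) measured 595 and 601 CPM in the treated grafts against 889 and 249 CPM in the control grafts. The treated rOvaries were nearly identical to each other and lay between controls that differed by 3.57-fold. Its log2 fold change was 0.07 (SE 0.61, edgeR adjusted p = 0.941) with a 95% interval from −1.53 to 1.67, the widest of the 37. Without control replicate 1 it was 1.25, and without control replicate 3 it was −0.59 (adjusted p = 0.0318, edgeR). Control replicate 3, in which Ldhb was lowest, was also the library whose summed oocyte markers were lowest, at 63.9 CPM against 874 CPM in control replicate 1. The other libraries did not share an order, as Ldhb was highest in control replicate 1 and the oocyte sum in INK128 replicate 1. The steroidogenic sum given above was highest in control replicate 3 and lowest in control replicate 1. The part of the cell types in the Ldhb level was not tested. Ldha measured 318 and 324 CPM with INK128 and 260 and 311 CPM without. Its groups did not overlap but were separated by only a few CPM, with a log2 fold change of 0.17 (SE 0.19, edgeR adjusted p = 0.54).

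Lactate and pyruvate cross the membrane through monocarboxylate transporters. Slc16a1, encoding MCT1, measured 97.4 and 84.5 CPM in treated and 86 and 95.9 CPM in control rOvaries. The values were interleaved, the log2 fold change was 0.00 and its 95% interval ran from −0.46 to 0.46. Slc16a3, encoding MCT4, the exporter of glycolytic cells, measured 36.1 and 29.5 CPM in the treated grafts against 13.3 and 30.9 CPM in the control grafts. It was low in control replicate 1, while control replicate 3 lay within the treated range, with a log2 fold change of 0.57 (SE 0.45, edgeR adjusted p = 0.397). It ran from 0.07 to 1.29 with single libraries left out, and Slc16a3 was called higher without control replicate 3.

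Pyruvate dehydrogenase is switched off when its E1 subunit is phosphorylated by 1 of the kinases Pdk1 to Pdk4. Pdk1, a known HIF1α target (chr2:71873224-71903858, plus strand), measured 17.2 and 11.9 CPM with INK128 and 47.9 and 30.6 CPM without. Both treated rOvaries were below both controls, 2.69-fold in mean (14.6 ± 3.76 CPM treated against 39.3 ± 12.2 CPM control, each mean ± SD of n = 2). The log2 fold change was −1.43 (SE 0.34, edgeR adjusted p = 0.0646) with a 95% interval from −2.33 to −0.53, and DESeq2 gave an adjusted p of 0.00417. Pdk3, the kinase with the highest specific activity, measured 27.8 and 26.6 CPM in treated and 53.3 and 30.2 CPM in control rOvaries. Its groups did not overlap, although control replicate 3 was close to the treated rOvaries (log2 fold change −0.62, SE 0.33, edgeR adjusted p = 0.235). Pdk2, the most widespread kinase, measured 48.4 and 66.8 CPM in the treated grafts against 48.4 and 64.8 CPM in the control grafts, and Pdk4, the form induced by fasting, 12.1 and 8.1 CPM with INK128 and 11.7 and 11.1 CPM without. Both were interleaved between groups, with log2 fold changes of 0.03 and −0.17. Among the subunits of E1, Pdhb measured 110 and 113 CPM in treated and 90 and 103 CPM in control rOvaries with a log2 fold change of 0.21 (SE 0.17, edgeR adjusted p = 0.411). Pdha1 had overlapping groups and shares 16.1% of its exon length with Map3k15 on the opposite strand.

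In the TCA cycle the 3 largest differences were those of Idh2, Ogdh and Mdh2, and they went in both directions. Idh2, the mitochondrial NADP-dependent isocitrate dehydrogenase (chr7:80094846-80115392, minus strand), measured 196 and 214 CPM in the treated grafts against 112 and 129 CPM in the control grafts. Both treated rOvaries were above both controls, 1.7-fold in mean (205 ± 12.8 CPM treated against 120 ± 11.7 CPM control, each mean ± SD of n = 2). The log2 fold change was 0.76 (SE 0.18, edgeR adjusted p = 0.0626), the highest of the 37, DESeq2 gave an adjusted p of 0.00295, and with the exon length offset it was 0.40 (adjusted p = 0.255, edgeR). Mdh2, the mitochondrial malate dehydrogenase (chr5:135778480-135790398, plus strand), measured 308 and 322 CPM with INK128 and 217 and 225 CPM without. Replicates differed by at most 1.05-fold within a group, and the treated rOvaries were 1.42-fold higher, with a log2 fold change of 0.51 (SE 0.17, edgeR adjusted p = 0.109) and a DESeq2 adjusted p of 0.0219 at a fold change below 1.5. Ogdh, the E1 subunit of the 2-oxoglutarate dehydrogenase complex (chr11:6291633-6356642, plus strand), went the other way at 154 and 196 CPM in treated and 267 and 271 CPM in control rOvaries. Its controls were nearly equal and 1.54-fold above the treated rOvaries, with a log2 fold change of −0.62 (SE 0.20, edgeR adjusted p = 0.106) and a DESeq2 adjusted p of 0.0287.

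Succinyl-CoA ligase shares its Suclg1 subunit between 2 forms and uses Suclg2 for the GTP-forming one. Suclg1 measured 115 and 125 CPM in the treated grafts against 76.3 and 107 CPM in the control grafts, and Suclg2 90.2 and 103 CPM with INK128 and 94.9 and 164 CPM without. The first was higher in both treated rOvaries and the second overlapped, with log2 fold changes of 0.39 (SE 0.23, edgeR adjusted p = 0.276) and −0.42 (SE 0.31, edgeR adjusted p = 0.366). Mdh1, the cytosolic malate dehydrogenase of the malate-aspartate shuttle, measured 253 and 205 CPM in treated and 255 and 334 CPM in control rOvaries, 1 treated rOvary lying just below the lower control (log2 fold change −0.37, SE 0.23, edgeR adjusted p = 0.308), and with the exon length offset the log2 fold change was −0.74. The remaining TCA cycle members were Cs (citrate synthase), the 3 subunits of NAD-dependent isocitrate dehydrogenase (Idh3a, Idh3b, Idh3g), Dlst (the E2 subunit beside Ogdh) and Fh1 (fumarase). Their log2 fold changes ran only from −0.12 to 0.28, and Idh3g and Fh1 alone did not overlap, both higher with INK128. The 95% interval of each of these 6 lay within 2-fold.

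**Figure D3:**
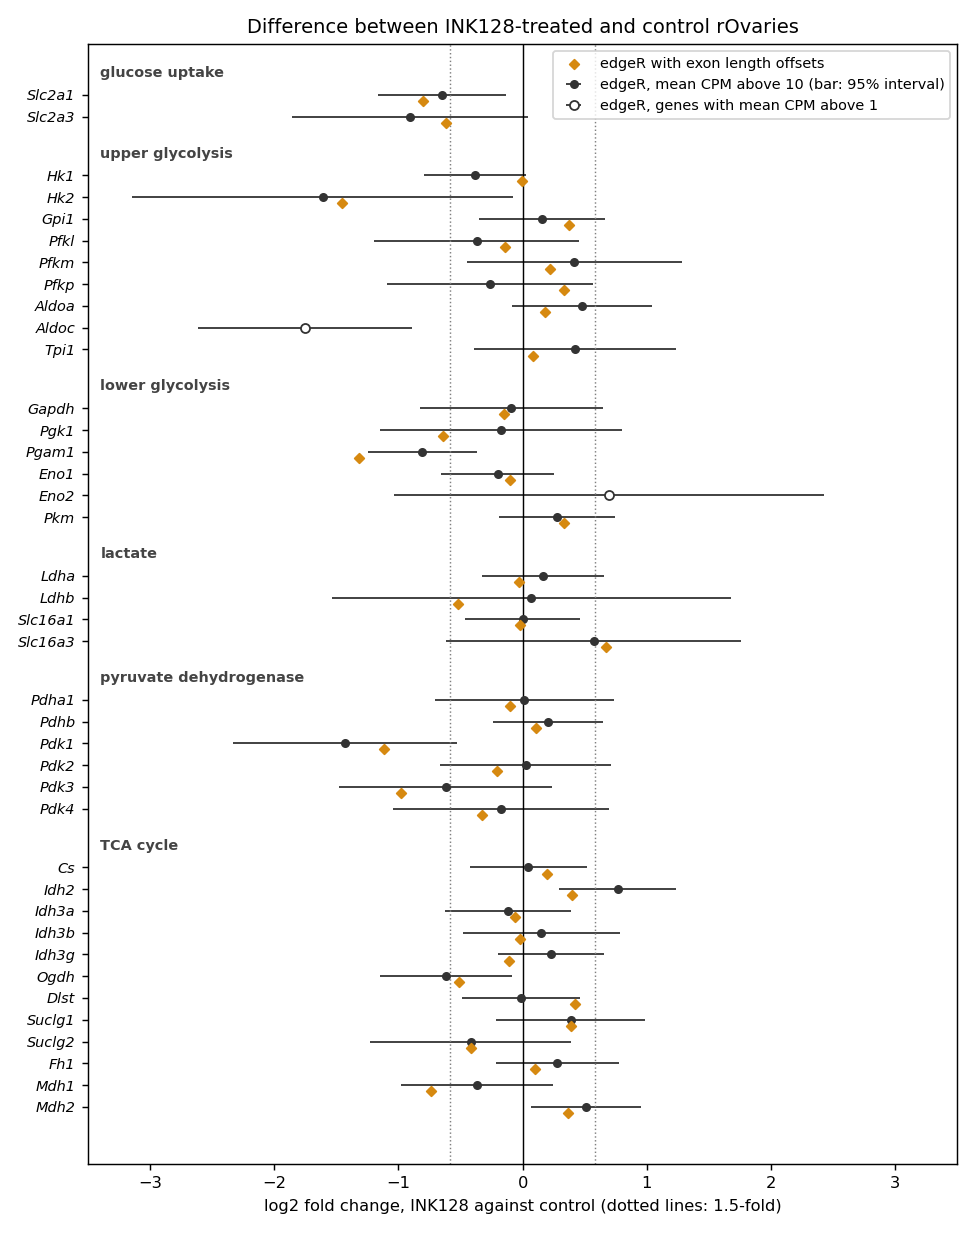
Log2 fold change of each member, INK128-treated against control rOvaries, from edgeR (black points, bars are 95% intervals; open points for Aldoc and Eno2, from the fit of genes with a mean CPM above 1) and with exon length offsets (orange diamonds, drawn just below the points). Dotted lines mark 1.5-fold, and most bars cross 0, those of Slc2a1, Hk2, Aldoc, Pgam1, Pdk1 and Ogdh lying below it and those of Idh2 and Mdh2 above.

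By role, the median log2 fold changes were −0.78 for the 2 uptake genes, −0.05 for 8 upper and −0.17 for 5 lower glycolysis genes, 0.12 for 4 lactate genes, −0.08 for 6 pyruvate dehydrogenase genes and 0.10 for 12 TCA cycle genes. Of the uptake genes, Slc2a3 passed the filter through the control level. None of these groups held a gene called by edgeR. With the exon length offset the medians of upper glycolysis and of the lactate genes changed sign, to 0.13 and −0.02, and the others were −0.71 for uptake, −0.15 for lower glycolysis, −0.27 for pyruvate dehydrogenase and 0.04 for the TCA cycle. Scaling by library totals alone lowered the median of all tested genes from −0.03 to −0.15 and that of the members from 0.00 to −0.12.

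**Figure D4:**
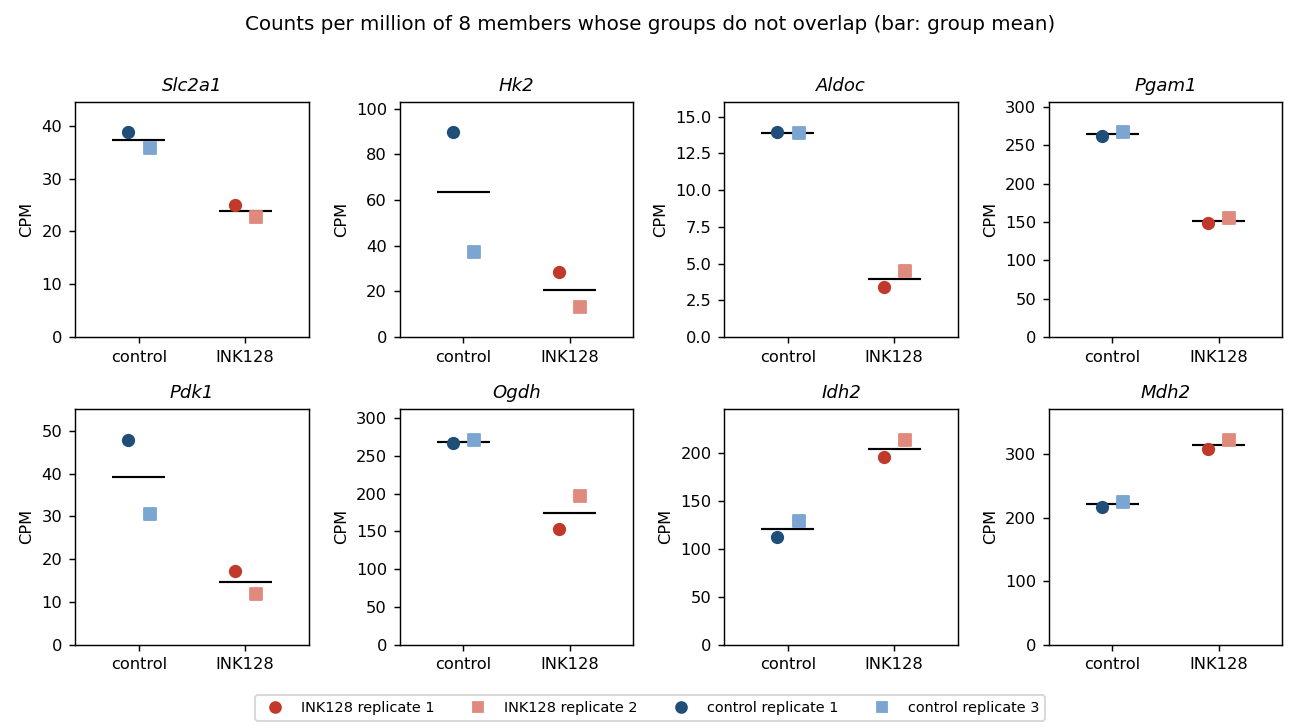
CPM of 8 members whose groups did not overlap, one panel per gene with its own linear axis from 0. Symbols are single libraries and bars are group means of 2. Slc2a1, Hk2, Aldoc, Pgam1, Pdk1 and Ogdh were lower and Idh2 and Mdh2 higher in both treated rOvaries, and the spread between replicates was widest for Hk2.

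The promoters of members that were lower together are shown with the ACGTG core. It is 1 form of the core of sites bound by HIF1 and lies within the CACGTG E-box bound by Myc. The genes were picked after their values were seen: Slc2a1, Hk2, Pgam1 and Pdk1 as glycolysis and pyruvate dehydrogenase members called lower by DESeq2, and Ldha for its 5 matches without a lower level. Each sequence holds the 250 bases before a RefSeq transcription start on GRCm38.p6 (mm10), 5′ to 3′ on the strand of the gene, with ACGTG or its reverse complement CACGT in capitals.
Slc2a1 (chr4:119108495-119108744, plus strand): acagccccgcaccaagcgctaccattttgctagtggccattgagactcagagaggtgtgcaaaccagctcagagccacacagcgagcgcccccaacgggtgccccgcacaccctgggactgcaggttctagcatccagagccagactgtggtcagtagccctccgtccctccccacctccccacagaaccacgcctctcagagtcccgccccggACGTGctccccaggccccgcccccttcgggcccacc
Hk2 (chr6:82774455-82774704, minus strand): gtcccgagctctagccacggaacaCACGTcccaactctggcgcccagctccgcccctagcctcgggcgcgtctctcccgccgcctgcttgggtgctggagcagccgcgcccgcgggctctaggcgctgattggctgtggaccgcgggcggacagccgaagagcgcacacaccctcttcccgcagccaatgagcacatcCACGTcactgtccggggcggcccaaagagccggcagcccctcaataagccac
Pgam1 (chr19:41911621-41911870, plus strand): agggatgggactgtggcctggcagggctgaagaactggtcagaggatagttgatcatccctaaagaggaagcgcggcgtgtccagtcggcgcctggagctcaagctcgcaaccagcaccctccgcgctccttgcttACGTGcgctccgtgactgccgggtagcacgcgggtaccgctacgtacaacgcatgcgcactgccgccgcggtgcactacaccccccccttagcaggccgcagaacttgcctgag
Pdk1 (chr2:71872974-71873223, plus strand): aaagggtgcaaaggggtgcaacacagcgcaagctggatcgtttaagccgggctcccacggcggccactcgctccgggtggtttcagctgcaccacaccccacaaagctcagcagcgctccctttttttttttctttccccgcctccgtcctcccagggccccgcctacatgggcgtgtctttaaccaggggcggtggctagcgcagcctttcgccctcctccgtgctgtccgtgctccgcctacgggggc
Ldha (chr7:46845554-46845803, plus strand): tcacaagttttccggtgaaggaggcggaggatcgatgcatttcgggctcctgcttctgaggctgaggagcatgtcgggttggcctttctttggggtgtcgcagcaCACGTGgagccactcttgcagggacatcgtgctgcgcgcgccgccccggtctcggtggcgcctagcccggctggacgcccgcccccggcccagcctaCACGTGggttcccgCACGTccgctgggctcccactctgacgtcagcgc
Slc2a1 and Pgam1 held 1 match, Hk2 held 2 and Pdk1 none. Ldha held 5 counted on both strands, since CACGTG contains ACGTG on each strand. GCGTG, another form of the HIF1 core, was not searched and lies in the Pdk1 window. These are therefore not counts of all possible HIF1 sites. A promoter entry was found for 37 of the 39 members, not for Slc2a3 and Idh3a, and 16 of the 37 (43.2%) held ACGTG before at least 1 of their starts. The share was 25.3% of 8816 tested genes and 18.5% of 27025 genes with an entry. Over single starts it was 41.8% of 55 for the members, 6 of them overlapping windows of Ogdh, 21.5% for tested genes and 16.6% of 32851 for all. CACGTG was found before 12.7% of the members' starts, 8.22% of those of tested genes and 6.02% of all. The motif was in 6 of 10 members that were higher in both treated rOvaries, in 6 of the 9 lower ones with an entry and in 4 of 16 whose groups overlapped. Such a match is only a run of letters in this window, and no factor binding was measured here.

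Many of these enzymes have isoforms, and the ratio of a pair of genes within a library is not altered by library scaling. For 12 isoform pairs and the subunit pair Suclg1 and Suclg2, 13 pairs in all, the log2 ratio was compared between groups by a two-sided exact permutation test, whose smallest possible p with 2 against 2 libraries is 0.333, so no pair could pass. The ratio of Hk2 to Hk1 was 0.39 and 0.189 in the treated grafts against 0.962 and 0.4 in the control grafts, a difference of −1.19 on the log2 scale (permutation p = 0.333, 0.619 after Benjamini-Hochberg adjustment over 13 pairs). Pdk1 to Pdk2 was 0.356 and 0.178 in the treated grafts against 0.989 and 0.473 in the control grafts, a log2 difference of −1.44. Both ratios, of CPM not corrected for length, were lower in the treated rOvaries, with the nearest values of the groups close together for Hk2 to Hk1. Mdh2 to Mdh1 was 1.22 and 1.58 in the treated grafts against 0.853 and 0.673 in the control grafts, a log2 difference of 0.87. Suclg1 to Suclg2 was 1.28 and 1.21 in the treated grafts against 0.804 and 0.655 in the control grafts, a log2 difference of 0.77. In these 2 pairs the CPM ratio was above 1 in both treated rOvaries and below 1 in both controls.

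The log2 ratio of Aldoc to Aldoa differed by −2.31, that of Eno2 to Eno1 by 1.01 and that of Slc16a3 to Slc16a1 by 0.69, all 3 also without overlap (exact permutation p = 0.333 each). Control replicate 3 and INK128 replicate 2 were almost equal for Eno2 to Eno1 and close for Slc16a3 to Slc16a1. The ratio of Ldhb to Ldha was 1.87 and 1.86 in the treated grafts against 3.42 and 0.8 in the control grafts, the treated rOvaries lying together and the controls on both sides of them. The other 5 pairs (Pfkp and Pfkm to Pfkl, Slc2a3 to Slc2a1, Pdk4 and Pdk3 to Pdk2) overlapped between groups, with log2 differences between −0.58 and 0.79.

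Compared per kilobase of exon, Ldhb had the highest mean level of the 39 members, 372 CPM per kilobase, ranging from 159 to 566 between the controls. Aldoa followed with 258, then Pkm with 120, Pgam1 with 105, Mdh1 with 102 and Tpi1 with 101 CPM per kilobase. Ldhb and Aldoa overlapped over the libraries, as did Pkm, Pgam1, Mdh1 and Tpi1, so their order is not fixed. The lowest in mean were Eno2 with 0.536, Slc2a3 with 1.71, Aldoc with 2.74 and Pfkp with 2.89 CPM per kilobase. Their order too changed between libraries. In INK128 replicate 1 Aldoc (1.05) lay below Slc2a3 (1.32), and in both controls Aldoc lay above Pfkp. Exon length here joins the exons of all annotated transcripts of a gene, which lowers the value of genes with long alternative exons, and the Gapdh value of 11.2 leaves out its copies.

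Other genes of the same pathways were taken from written lists. Of 22 other glycolysis genes 12 were tested, none was called by edgeR, and the median log2 fold change was −0.35. Pfkfb3, which makes the activator fructose 2,6-bisphosphate, measured 18.6 and 19.5 CPM in the treated grafts against 34.8 and 45.8 CPM in the control grafts, with a log2 fold change of −1.08 (SE 0.23, edgeR adjusted p = 0.0567). It was lower in both treated rOvaries than in both controls.

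Of 16 other glucose and monocarboxylate transporters 8 were tested, and 2 fell, against 3.19% of all tested genes called lower. Slc2a2, which encodes GLUT2, measured 0.483 and 1.33 CPM with INK128 and 12 and 30.1 CPM without (log2 fold change −4.51, SE 0.77, edgeR adjusted p = 0.0486), and passed the filter on low values through the control level. Slc5a2, the sodium-glucose cotransporter SGLT2, measured 19.8 and 18.1 CPM in treated and 63.2 and 93.9 CPM in control rOvaries (log2 fold change −2.05, SE 0.26, edgeR adjusted p = 0.0464), and 20.6% of its exon length overlaps BC017158 on the opposite strand. Of 20 cytosolic and anaplerotic enzymes 19 were tested, and 1 fell, Fbp1, the fructose bisphosphatase of gluconeogenesis, at 6.98 and 10.6 CPM in the treated grafts against 51 and 126 CPM in the control grafts (log2 fold change −3.33, SE 0.54, edgeR adjusted p = 0.0475). Its treated mean was below 10 CPM, so Fbp1 too passed the filter through the control level. The median of the 19 was −0.63, and 12 of them were lower in both treated rOvaries, against 34% of all tested genes. GLUT2, SGLT2 and Fbp1 are known from the proximal tubule of the kidney. The sum of 25 kidney markers given above was also lower in the treated rOvaries, and in both groups its order between replicates was that of Slc2a2 and Fbp1, but not that of Slc5a2, whose treated rOvaries had the opposite order. The part of kidney RNA in these differences was not tested. None of these calls was made without INK128 replicate 1, without INK128 replicate 2, with the exon length offset or among genes with a mean CPM above 1, settings in which edgeR called 0 genes.

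**Figure D5:**
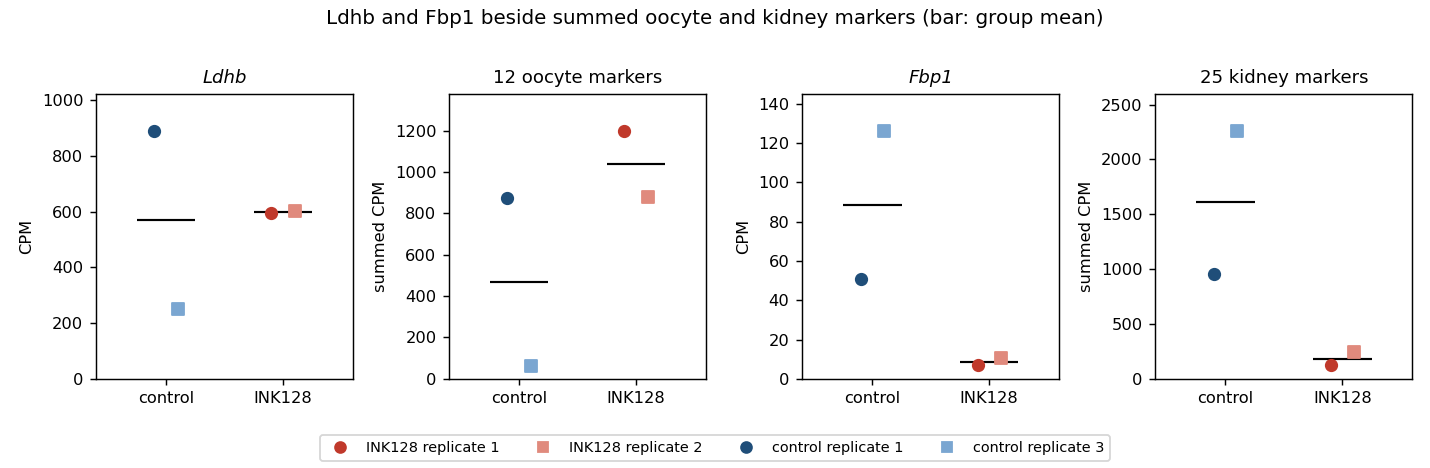
CPM of Ldhb and Fbp1 beside the summed CPM of 12 oocyte and 25 kidney markers, each panel with its own linear axis from 0. Symbols are single libraries and bars are group means of 2. Ldhb and the oocyte sum were both lowest in control replicate 3 (249 and 63.9 CPM), and Fbp1 and the kidney sum were both highest there (126 and 2260 CPM) and lowest in INK128 replicate 1. Ldhb was highest in control replicate 1, whereas the oocyte sum was highest in INK128 replicate 1.

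Of 12 other genes of pyruvate dehydrogenase and its supply 10 were tested, and 1 fell, against 3.19% of all tested genes called lower. Pdpr, the regulatory subunit of the phosphatase that switches the complex on, measured 3.11 and 3.54 CPM with INK128 and 40.2 and 45.1 CPM without. Its means differed by 12.8-fold with close replicates, and the log2 fold change was −3.68 (SE 0.25, edgeR adjusted p = 0.0464), a call that was likewise absent under those 4 settings. Pdpr passed the filter on low values through the control level only. The catalytic subunits Pdp1 and Pdp2 of that phosphatase did not pass (adjusted p = 0.936 and 0.326, edgeR), and the median of the 10 was 0.12, or −0.03 with the exon length offset. The 10 other TCA cycle genes were all tested, and none was called by edgeR. Their median log2 fold change was 0.48, with 7 of 10 higher in both treated rOvaries against 34.5% of all tested genes. DESeq2 called 2 of them higher, Ogdhl (adjusted p = 0.00608) and Sdhaf1 (adjusted p = 0.0103), against 13.6% of all tested genes. Sdhaf1 shares 69.6% of its exon length with E130208F15Rik on the opposite strand. Ogdhl, an isoform of Ogdh, measured 70.3 and 89.7 CPM in treated and 27.7 and 42.8 CPM in control rOvaries, with a log2 fold change of 1.18 (SE 0.29, edgeR adjusted p = 0.0666). Sdhaf4, an assembly factor of succinate dehydrogenase, measured 26.7 and 20 CPM in the treated grafts against 8.9 and 13.8 CPM in the control grafts, with a log2 fold change of 1.04 (SE 0.34, edgeR adjusted p = 0.11), and shares 12.7% of its exon length with Gm26524. With the exon length offset the log2 fold change of Sdhaf4 was 0.27 (adjusted p = 0.663, edgeR) and that of Ogdhl 1.13 (adjusted p = 0.114, edgeR). The median of the 10 was 0.16 with the exon length offset. So Ogdh and Ogdhl lay on opposite sides of 0, neither called by edgeR.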

How the data were processed

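Poly(A) RNA of 4 rOvaries was sequenced. Per the labels and the study's methods, the authors used Trimmomatic for trimming, HISAT2 for alignment to mm10 and featureCounts for counting (versions are not given in the sources used here), and deposited raw read counts per gene symbol for 2 INK128-treated and 2 control libraries (RefGene annotation, NEBNext Ultra kit). Libraries were grouped by their labels.

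TMM-scaled CPM were obtained with edgeR 4.0.16 (R 4.3.3), and all 11758 genes with a mean CPM above 10 were compared with edgeR's quasi-likelihood F-test, adjusted by Benjamini-Hochberg. Calls needed a fold change above 1.5 at an adjusted p below 0.05. DESeq2 1.42.0 was an alternative, as were other size factors, filters and thresholds, offsets for exon length (lowess span 0.3), and leaving out each library. The fits were tested on counts simulated at the mean levels of these 11758 genes and the sizes of these libraries. Each gene was given the spread typical of its level, the same in both groups. The changed genes were not drawn from the lowest levels. In this setting edgeR recovered 7.5% of 200 genes whose planted log2 change was 1, and 93.5% of 200 whose planted log2 change was 2. Of its calls, 0% and 5.56% were false. DESeq2 recovered 14% and 94.5%, with 12.5% and 10% of its calls false. The real controls agreed less with each other than the treated rOvaries did, so these rates need not hold for the real data. Positions and exon lengths came from GENCODE M21 on mm10, near-identical genes from blastn 2.17.0, and promoters from RefSeq (GRCm38.p6).

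The members and gene lists were chosen with earlier results of these data known. Named genes were called members, the 3 with the largest log2 fold change in each role, the isoform or subunit pairs, and in each pathway list the called genes or else the 2 with the largest change, of which 1 is not reported here. Proteins were not analysed here.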

Additional observations from a re-analysis of the deposited data

How the results depend on the processing

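No paired analysis was possible because the groups share only replicate number 1. Of 455 log2 fold changes of members under alternatives 413 kept their direction, in 23 of 39 members all of them, and no call was lost, since none was made. Counts of all genes called higher and lower (374 and 375) were 1595 and 1772 with DESeq2, 1152 and 1953 with at least 1 count, 803 and 717 with CPM above 10 in all libraries, 1540 and 1591 at an adjusted p below 0.1, and 0 and 0 with a mean CPM above 1 or the exon length offset. They were 567 higher with the upper quartile, 580 lower with library totals, and 0 to 2624 higher and 0 to 2666 lower with single libraries left out. Members called higher and lower (0 and 0) were 1 and 5 with DESeq2, 1 and 3 with at least 1 count (Idh2 higher, Hk2, Aldoc and Pdk1 lower), 1 and 3 at an adjusted p below 0.1, 0 and 2 with CPM above 10 in all libraries (Pgam1 and Pdk1), 0 and 1 with library totals (Pgam1), and 0 to 6 and 0 to 8 with single libraries left out. Their median log2 fold change was −0.12 with library totals and −0.090 to 0.13 without single libraries. The cause of these shifts was not tested.

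Reversed log2 fold changes were, with the exon length offset, Pfkp 0.33, Ldha −0.030, Ldhb −0.52, Slc16a1 −0.020, Pdha1 −0.10, Pdk2 −0.21, Idh3b −0.023, Idh3g −0.11 and Dlst 0.42. With library totals they were Ldhb −0.053, Slc16a1 −0.12, Pdha1 −0.10, Pdk2 −0.10 and Cs −0.077. Slc16a1 was −0.0076 with DESeq2, −0.0075 with RLE factors and −0.017 with CPM above 10 in all libraries, where Pdha1 was −0.0014. Dlst was 0.053 with the upper quartile, 0.042 with a mean CPM above 1 and 0.029 with at least 1 count. Gapdh was 0.15 with copies summed. Values that kept their sign but moved over 1.5 times with the exon length offset were Hk1 −0.0079, Gpi1 0.37, Pfkl −0.14, Pfkm 0.22, Aldoa 0.18, Tpi1 0.086, Gapdh −0.15, Pgk1 −0.64, Pgam1 −1.32, Eno1 −0.10, Pdhb 0.11, Pdk3 −0.98, Pdk4 −0.33, Cs 0.19, Idh2 0.40, Idh3a −0.059, Fh1 0.10 and Mdh1 −0.74.

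With single libraries left out, the log2 fold changes that crossed 0 ran from −0.74 to 0.089 for Pfkl, −0.62 to 0.17 for Pfkp, −0.38 to 0.23 for Gapdh, −0.61 to 0.41 for Pgk1, −0.59 to 1.25 for Ldhb, −0.10 to 0.11 for Slc16a1, −0.29 to 0.37 for Pdha1, −0.22 to 0.25 for Pdk2, −0.49 to 0.10 for Pdk4, −0.055 to 0.15 for Cs, −0.30 to 0.049 for Idh3a, −0.10 to 0.43 for Idh3b, −0.11 to 0.094 for Dlst and −0.77 to 0.014 for Suclg2. Those that kept their sign but moved over 1.5 times ran from −2.25 to −0.85 for Hk2, 0.00079 to 0.30 for Gpi1, 0.033 to 0.90 for Pfkm, 0.30 to 0.64 for Aldoa, 0.074 to 0.84 for Tpi1, −0.26 to −0.13 for Eno1, 0.030 to 0.29 for Ldha, 0.073 to 1.29 for Slc16a3, 0.10 to 0.29 for Pdhb, −0.99 to −0.17 for Pdk3, 0.15 to 0.28 for Idh3g, 0.15 to 0.64 for Suclg1, 0.12 to 0.42 for Fh1 and −0.56 to −0.17 for Mdh1. Isoform log2 ratio differences that crossed 0 ran from −0.71 to 0.92 for Pfkp to Pfkl, −0.056 to 1.64 for Pfkm to Pfkl, −0.87 to 1.22 for Ldhb to Ldha, −0.63 to 0.17 for Slc2a3 to Slc2a1, −0.75 to 0.30 for Pdk4 to Pdk2 and −1.20 to 0.035 for Pdk3 to Pdk2. With the exon length offset Ldhb to Ldha was −0.49 and Slc2a3 to Slc2a1 0.19.

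The floor of 3 counts, at most 0.161 CPM, lay below the level of every member in every library.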

Other observations

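The pentose phosphate pathway branches from glycolysis at glucose 6-phosphate and supplies NADPH and ribose. All 8 of its listed enzymes were tested, none was called by edgeR, and the median log2 fold change was 0.21, with 5 of 8 higher in both treated grafts than in either control against 34.5% of all tested genes. With the exon length offset the median was 0.08. Pgls, the lactonase of the oxidative branch, measured 142 and 182 CPM with INK128 and 78.8 and 50.9 CPM without, with a log2 fold change of 1.32 (SE 0.29, edgeR adjusted p = 0.0579), and 20.6% of its exon length overlaps Fam129c. H6pd, the glucose 6-phosphate dehydrogenase of the endoplasmic reticulum, averaged 72.7 ± 2.9 CPM treated against 136 ± 10.7 CPM control, each mean ± SD of n = 2, with a log2 fold change of −0.90 (SE 0.17, edgeR adjusted p = 0.0507).

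Of 22 genes of the HIF pathway outside glycolysis 19 were tested, 1 rose and 1 fell, against 3.18% and 3.19% of all tested genes, and their median log2 fold change was −0.21, or −0.43 with the exon length offset. DESeq2 called 1 higher and 5 lower, and 2 were higher and 8 lower in both treated grafts than in either control, against 34.5% and 34% of all tested genes. Higd1a, a mitochondrial protein induced by hypoxia, measured 74 and 64.1 CPM in treated and 32.5 and 32.2 CPM in control rOvaries (log2 fold change 1.09, SE 0.18, edgeR adjusted p = 0.0476), and 22.5% of its exon length overlaps Gm47112. Ndrg1, a stress-responsive gene, measured 25.4 and 32.2 CPM in the treated grafts against 174 and 222 CPM in the control grafts (log2 fold change −2.78, SE 0.24, edgeR adjusted p = 0.0464), and 6.35% of its exon length overlaps Gm17035. The order of the libraries for Ndrg1 was that of the summed kidney markers given above. The part of kidney RNA in this difference was not tested. Vegfa, the usual HIF target, was picked after its values were seen and measured 40.7 and 56.1 CPM with INK128 and 22.3 and 74.4 CPM without, the controls lying on both sides of the treated rOvaries. The calls of Higd1a and Ndrg1 were not made when either INK128 library was left out, with the exon length offset or among genes with a mean CPM above 1. In none of these settings did edgeR call any gene.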
